A study of Homo sapiens and Mus musculus with 8 samples.

Results

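The change in gene expression from cell culture to xenograft was compared between 2 colorectal cancer lines of human origin, KM12 and LS174T. A gene belonged to the comparison if it reached a level of at least 1 CPM (a gene's reads scaled to a common library size) in at least 2 libraries, which 16070 of the 60483 genes in the table did, and all 8 libraries of the series were used. For each gene the difference between xenograft and culture was taken in each line, and the difference between those 2 differences, the line by environment interaction, was tested.

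Poly(A)-selected RNA was sequenced from cells grown in RPMI-1640 and from tumours that the same lines formed as cell line-derived xenografts. KM12 was labelled as carrying the GNAS R201H mutation in its parental form and was also studied as a GNAS knockout. LS174T, also labelled GNAS R201H, was studied without doxycycline, Dox (-), and with it, Dox (+), and the labels do not say what doxycycline induces. Each of the 4 combinations of line and environment therefore held 2 libraries, which differ in GNAS state or doxycycline and are not repeat cultures or tumours of one state. The spread used in the tests includes any effect of that state. The labels give neither the host strain nor the number of tumours behind a library, and the knockout is one engineered derivative. With libraries that are few and not stated to be separate cultures or animals, the p-values measure the spread between these libraries, which may be partly technical.

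Cells moved from a dish into a mouse lose the steady oxygen, nutrients and serum of the medium. Low oxygen stabilises hypoxia-inducible factors, which switch on genes for glucose use, blood vessel growth and mitophagy. Scarce amino acids or a stressed endoplasmic reticulum raise the transcription factor ATF4, and type I interferon, or nucleic acid sensed inside the cell, raises a set of antiviral genes.

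Libraries held between 15924846 and 37735085 counts, and every xenograft library was shallower than every culture library. In all 8 libraries the epithelial genes CDH1, EPCAM, KRT8, KRT18, KRT19, CDX1, CDX2, VIL1 and CDH17 were present, although the KM12 parental xenograft had the lowest CDX1 (10.9 CPM) and CDH17 (48.6 CPM). GNAS (chr20:58839718-58911192) itself stood at 1119 CPM in the parental KM12 culture and 298 CPM in the knockout culture, and at 1389.9 and 903 CPM in the matching xenografts. The knockout libraries thus kept GNAS reads, below the parental level in each environment. In LS174T it stood at 691 CPM in Dox (-) and 1746 CPM in Dox (+) culture, and at 586 and 691 CPM in the xenografts. The 2 xenograft libraries of a line differed more from each other than its cultures did: over 12522 genes the SD of the log2 difference within a pair was 0.786 for the KM12 xenografts and 0.299 for the KM12 cultures, and 0.536 and 0.272 for those of LS174T. Among fibroblast genes, COL3A1 stood at 220.2 CPM and LUM at 10.0 CPM in the KM12 parental xenograft, against at most 1.13 and 0.644 CPM in the other libraries, so the summed level of the 16 fibroblast markers was 273 CPM there and between 16.6 and 115 CPM elsewhere. Its part in the results was not tested beyond leaving that library out. The leukocyte gene PTPRC stayed at or below 0.0407 CPM in every library. CD14, of the same list, stood at 1.69 and 1.46 CPM in LS174T cultures and 7.36 and 4.46 CPM in LS174T xenografts. Of 6 leukocyte markers measured, 1 rose and 2 fell in LS174T in the test described below, against 23.7% and 22.4% of all genes. Of 14 endothelial markers, whose sum ran from 8.71 to 25.7 CPM, KDR was at 0 and VWF at or below 0.184 CPM throughout. CDH5 was at or below 0.0293 CPM in every culture, and at 0.803 and 1.02 CPM in the KM12 and 0.448 and 0.679 CPM in the LS174T xenografts. ERG was at 0 in KM12 and went from 1.596 and 1.62 CPM in LS174T cultures to 3.74 and 15.8 CPM in LS174T xenografts. The part of such cells in the results was not tested. In bulk RNA, fewer cells of a type and less RNA per cell cannot be told apart.

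The interaction passed the test in 2264 genes, 14.1% of those tested (edgeR's quasi-likelihood test, Benjamini-Hochberg adjusted p under 0.05). The xenograft response was the higher one in KM12 for 989 of them (6.15%) and the lower one for 1275 (7.93%). KM12 by itself had 2369 genes up (14.7%) and 2508 down (15.6%) in xenografts, and LS174T had 3816 up (23.7%) and 3598 down (22.4%). Over all 16070 genes the lines' responses had a Pearson correlation of 0.382, given as a description, since genes do not vary independently. The count for the line by environment interaction was 547 to 687 when any 1 of the 4 culture libraries was left out, and 1553 to 3395 when any 1 xenograft library was left out.

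Genes were called opposite when the interaction and both responses passed the test with different signs. There were 291 such genes: 112 rose in KM12 and fell in LS174T (0.697% of the genes tested), and 179 fell in KM12 and rose in LS174T (1.11%). Genes were called responsive in one line only when the interaction passed, that line's response passed with an absolute log2 change of at least 1, and the other line's response did not pass and stayed under 1.5-fold. By this rule 98 genes rose (0.61%) and 106 fell (0.66%) in KM12 only, while 365 rose (2.27%) and 287 fell (1.79%) in LS174T only. A further 236 genes changed the same way in both lines by different amounts, with the larger change in LS174T for 179 and in KM12 for 57. The remaining 881 genes with an interaction met none of these rules. The 2 culture and the 2 xenograft libraries did not overlap, in both lines, for 8718 genes (54.3% of all tested). Of the 291 opposite genes, 189 had the higher level in one line in culture and in the other line in xenografts. The same held for 1259 of the 2264 genes with an interaction and for 4838 of all 16070. Opposite responses make such a change of order more likely by their definition, so the count only describes the class. Median log2 changes were 1.38 in KM12 and -1.54 in LS174T for the 112 genes, and -1.05 and 1.05 for the 179. Counts of each kind fell by more than 1.5 times without any 1 culture library: there were 79 to 119 genes with opposite responses, 57 to 71 genes that respond in KM12 only and 186 to 241 genes that respond in LS174T only. Without either KM12 xenograft library they rose to 450 and 467 opposite genes and to 321 and 397 in KM12 only. The members changed too: these sets held 226 and 214 of the 291 opposite genes, and 157 and 167 of the 204 genes of KM12 only.

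**Figure D1:**
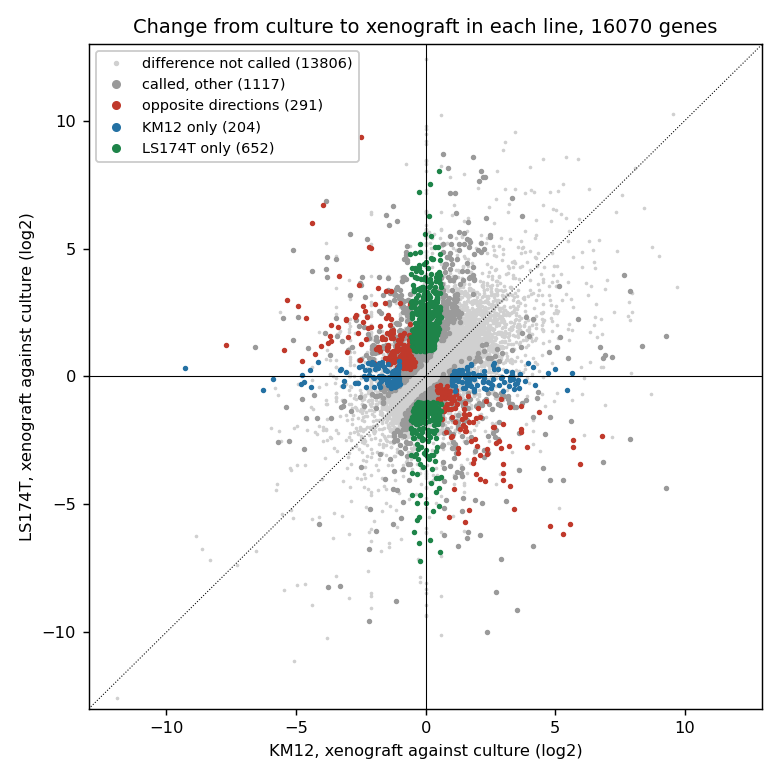
Log2 change from culture to xenograft in KM12 (x axis) and LS174T (y axis), 1 point per gene tested. Red points mark the 291 genes with opposite responses, blue the 204 of KM12 only, green the 652 of LS174T only, dark grey the other genes with an interaction and light grey the 13806 without one; the dotted line marks equal change.

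The rules have limits that some genes only just met. AQP11 (log2 change 1.88 in KM12 and -0.56 in LS174T) and ARID3A (-1.02 and 0.58) lay just inside the KM12-only rule, and ERN1 (-1.11 and 0.59) and LMTK3 (-1.10 and 0.61) just outside it. FBP1 (-0.58 in KM12 and 4.78 in LS174T) and PCDHB15 (-0.58 and 3.98) lay just inside the LS174T-only rule, and TBC1D9 (-0.58 and 2.22) and STEAP2 (-0.59 and 2.58) just outside.

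Many interferon-stimulated genes rose in KM12 xenografts, and most fell in LS174T xenografts. Of 31 genes listed, 30 were measured, and 21 had a higher response in KM12 (70% of those measured, against 6.15% of all genes). In KM12 15 rose, and in LS174T 22 fell and 1 rose. The median log2 change over the 30 genes was 1.35 in KM12 and -1.58 in LS174T, against 0 and 0.0382 over all genes tested. The 10 genes called opposite were IFI6, OASL, IFI44, IFI44L, OAS3, ISG15, OAS2, IFIT3, XAF1 and OAS1. The levels of the lines drew closer for 26 of the 30 genes, against 8533 of all 16070.

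IFI6, an interferon-induced mitochondrial and endoplasmic reticulum protein, had the smallest p of the list. Its level was 18.6 and 17.6 CPM in KM12 cultures, 32.0 and 45.7 CPM in KM12 xenografts, 215 and 179.8 CPM in LS174T cultures, and 8.95 and 9.55 CPM in LS174T xenografts. Thus LS174T was the higher line in culture and the lower line in xenografts, with no overlap between any of the pairs compared. The log2 change was 1.11 ± 0.19 (fitted SE) in KM12 and -4.42 ± 0.21 in LS174T, an interaction of 5.52 ± 0.28 (edgeR adjusted p = 0.000316).

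OAS3 and OAS1 encode 2′-5′-oligoadenylate synthetases, which activate RNase L when they bind double-stranded RNA. OAS3 rose from 27.7 and 34.6 CPM to 74.2 and 104 CPM in KM12, and fell from 207 and 199 CPM to 55.6 and 36.9 CPM in LS174T (interaction 3.65 ± 0.34, edgeR adjusted p = 0.00154). OAS1 rose from 6.12 and 8.00 CPM to 18.2 and 26.6 CPM in KM12 and fell from 226 and 176 CPM to 74.5 and 41.9 CPM in LS174T. For OAS3 the KM12 xenografts ended above the LS174T xenografts, while for OAS1 LS174T remained the higher line in both environments. OAS2, of the same family, was scarce in KM12, at 0.172 and 0.439 CPM in cultures and 1.61 and 5.00 CPM in xenografts, and fell from 39.2 and 31.0 CPM to 1.02 and 0.873 CPM in LS174T.

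ISG15, a ubiquitin-like protein joined to other proteins, stood at 11.7 and 13.6 CPM in KM12 cultures and at 20.8 and 20.5 CPM in KM12 xenografts. In LS174T it fell from 133 and 112 CPM to 47.9 and 46.8 CPM, so the interaction of 2.08 ± 0.20 (edgeR adjusted p = 0.00169) came mostly from LS174T. IFI44 rose in KM12 from 0.447 and 0.996 CPM to 4.47 and 6.65 CPM and fell in LS174T from 49.5 and 48.4 CPM to 7.61 and 6.50 CPM. After this the 4 xenograft libraries all lay between 4.47 and 7.61 CPM, although the cultures had been far apart. XAF1, an interferon-induced antagonist of the apoptosis inhibitor XIAP, was covered by 3 and 1 reads in KM12 cultures and by 91 and 40 in xenografts, a ratio of 54.3 with an exact 95% counting interval of 20.7 to 202. In LS174T it fell from 7.95 and 5.17 CPM to 1.67 and 0.631 CPM.

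The chemokine CXCL10 also met the rule, on few reads in KM12. No read was counted in either KM12 culture and 2 and 5 in the xenografts, which is at least 1.87-fold higher than a floor of 3 reads per library. In LS174T its level fell from 10.4 and 12.6 CPM to 0.0814 and 0.243 CPM, so that its difference between the lines rests on the LS174T cultures.

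Not every gene of the list followed. IRF9, a transcription factor of the interferon pathway, rose in both lines, from 1.10 and 1.20 CPM to 9.11 and 9.13 CPM in KM12 and from 2.701 and 1.29 CPM to 9.24 and 3.88 CPM in LS174T, with an interaction that did not pass (edgeR adjusted p = 0.251). CMPK2 was called in KM12 only. Without any 1 culture library the interferon calls numbered 12 to 15 of 30, without any 1 xenograft library 15 to 23, and with all 8 libraries under the other settings 18 to 23. These calls were higher in KM12 except for 1 of 21 without the KM12 knockout xenograft, a setting in which 3 genes of the list also fell in KM12. The sum of 17 leukocyte markers in KM12 was 275 and 322 CPM in cultures and 250.3 and 780.5 CPM in xenografts, of which LYZ, an epithelial as well as a macrophage product, made up 267, 312, 244 and 766 CPM. Their part in the interferon values was not tested.

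**Figure D2:**
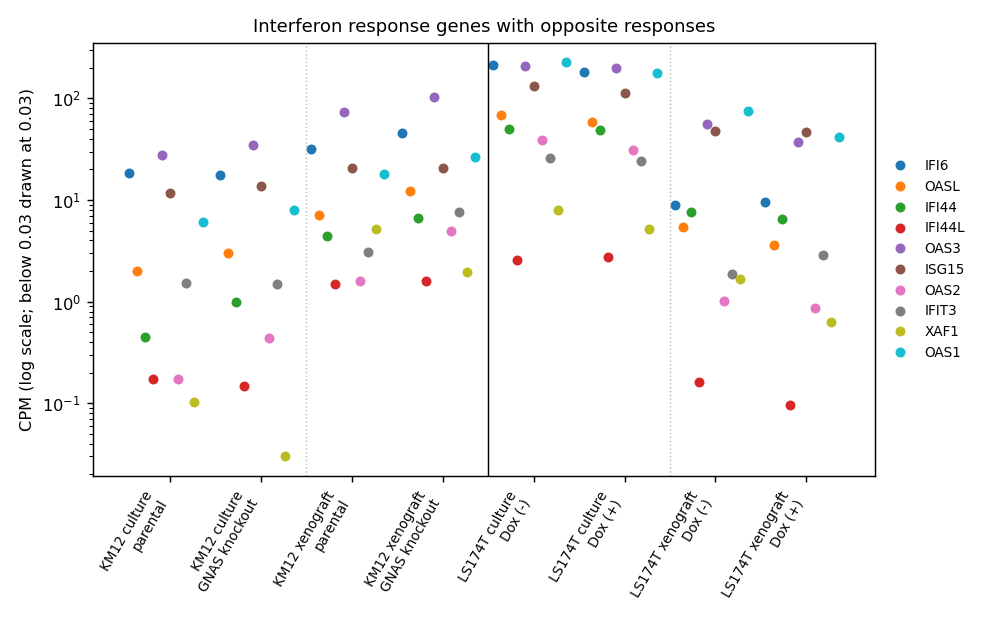
Level (CPM, log scale) of the 10 interferon-stimulated genes with opposite responses in each of the 8 libraries, 1 point per gene and library. In KM12, left of the solid line, the xenografts lie above the cultures, and in LS174T, right of it, the xenografts lie below.

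Promoters of these genes were searched for the core of the interferon-stimulated response element, the sequence through which interferon acts on its target genes. Promoter sequences, 250 bases before to 50 after the start, came from RefSeq (GRCh38.p14) and matched 11384 of 16062 symbols tested. GAAANNGAA, on either strand, was present in 13 of the 17 interferon genes with an interaction and a promoter (76.5%), against 6.36% of all 11384 promoters. It was present in 14.8% of the 81 promoters of genes that rose in KM12 and fell in LS174T, and in 5.22% of the 134 of genes with the reverse pattern. The first of these classes includes the 10 interferon genes called opposite, so its share is not separate from that of the list. List genes without an interaction were not counted, so the shares are not tied to the difference between the lines. A match is a description of the letters and not evidence of binding. Stretches of 60 bases before the start are shown 5′ to 3′ on the gene's strand, with each match in capitals, because they let the shared letters be seen in list genes with an interaction: IFI6 at chr1:27672315-27672374 (minus strand), IFI44 at chr1:78649729-78649788 (plus), IFIT3 at chr10:89327816-89327875 (plus) and IFIT1 at chr10:89392482-89392541 (plus).
IFI6: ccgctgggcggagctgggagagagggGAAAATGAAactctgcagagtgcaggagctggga
IFI44: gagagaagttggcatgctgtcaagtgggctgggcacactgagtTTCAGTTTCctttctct
IFIT3: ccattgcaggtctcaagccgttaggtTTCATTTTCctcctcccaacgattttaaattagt
IFIT1: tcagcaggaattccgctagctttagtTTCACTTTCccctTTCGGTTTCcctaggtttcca
IFI6 carries 3 matches in the 250 bases before its start. IFIT1 was at 22.6 and 21.2 CPM in LS174T cultures and 0.285 and 1.36 CPM in its xenografts. In the last 3 stretches the match reads on the opposite strand, and the IFIT1 stretch holds 2 matches 4 bases apart.

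Genes of antigen presentation by MHC class I moved in part with the interferon genes. Of 16 measured, 6 had a higher response in KM12 and 1 a lower one, and 6 rose in KM12 while 5 fell and 2 rose in LS174T. Over all genes 6.15% had a higher response in KM12, 14.7% rose in KM12, and 22.4% fell and 23.7% rose in LS174T, so the LS174T counts lie near the background. HLA-B, a presenting chain, rose from 148 and 171 CPM to 248 and 404 CPM in KM12 and fell from 30.2 and 26.1 CPM to 8.42 and 10.4 CPM in LS174T (interaction 2.61 ± 0.34, edgeR adjusted p = 0.00374). B2M, the shared light chain, fell only in LS174T, from 615 and 562 CPM to 251 and 324 CPM, and was at 549 and 629 CPM in cultures and 598 and 933 CPM in xenografts of KM12. HLA genes resemble one another closely, so a read of one may have been counted for another. Without any 1 culture library 2 to 3 of the 7 interactions passed.

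Genes of the hypoxia response rose in both lines, and more in LS174T. All 24 listed genes rose in LS174T, and 14 rose and 1 fell in KM12. Over all genes 23.7% rose in LS174T, and 14.7% rose and 15.6% fell in KM12. The interaction passed for 15 of 24, each with the lower response in KM12 (62.5%, against 7.93% of all genes), and the median log2 change was 2.93 in LS174T and 0.86 in KM12. The levels of the lines drew closer for only 1 of the 24, against 8533 of all 16070.

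VEGFA, the main blood vessel growth factor, stood at 453 and 419 CPM in KM12 cultures and at 596 and 385 CPM in KM12 xenografts, which overlap. In LS174T it rose from 151 and 138 CPM to 2278 and 1049.5 CPM, so the line with the lower level in culture had the higher one in xenografts (interaction -3.36 ± 0.51, edgeR adjusted p = 0.00845). DDIT4, an inhibitor of mTORC1, showed the same order: 342 and 289 CPM in cultures and 384 and 352 CPM in xenografts of KM12, against 55.5 and 52.6 CPM and then 1853 and 855 CPM in LS174T. Both genes, with BNIP3, MXI1 and FAM162A, were called in LS174T only.

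ADM, the vasodilator adrenomedullin, rose in both lines, from 17.6 and 24.0 CPM to 56.4 and 59.7 CPM in KM12 and from 8.59 and 6.56 CPM to 373 and 177 CPM in LS174T. CA9, a carbonic anhydrase widely used as a hypoxia marker, rose in KM12 from 0.275 and 0.0586 CPM to 3.61 and 10.3 CPM and in LS174T from 0.491 and 0.729 CPM to 234 and 229 CPM. The CA9 interaction did not pass the test (-3.14 ± 1.24, edgeR adjusted p = 0.138), so a different response was not shown for it. Without any 1 culture library 8 to 13 hypoxia interactions passed, and without any 1 xenograft library 15 to 19.

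Several genes with opposite responses fell in KM12 and rose in LS174T from a low level. NDUFA4L2, a mitochondrial protein induced by hypoxia-inducible factor that restrains complex I, had the largest interaction of those named. It was at 7.91 and 7.06 CPM in KM12 cultures, 1.26 and 1.36 CPM in KM12 xenografts, 0.430 and 0.298 CPM in LS174T cultures, and 244 and 249 CPM in LS174T xenografts. The log2 change was -2.51 ± 0.18 in KM12 and 9.38 ± 0.21 in LS174T (interaction -11.88 ± 0.27, edgeR adjusted p = 1.02e-06).

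PLOD2, a lysyl hydroxylase that modifies collagen, was at 1.20 and 1.38 CPM in KM12 cultures and was covered by 0 and 3 reads in the xenografts. In LS174T it rose from 1.69 and 2.35 CPM to 273 and 149.8 CPM, and the KM12 ratio of culture to xenograft was 16.5 (95% counting interval 5.44 to 81.5). The stanniocalcin STC2 was at 1.51 and 0.527 CPM in KM12 cultures and had no reads in either KM12 xenograft, at least 6.42-fold lower, while LS174T went from 99.7 and 90.5 CPM to 234 and 205 CPM. Thus both genes were nearly absent from KM12 tumours and abundant in LS174T tumours.

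NXPH4, a neurexophilin, fell in KM12 from 13.4 and 9.61 CPM to 0.516 and 0.582 CPM and rose in LS174T from 2 and 7 reads to 319 and 126, a ratio of 68.6 (95% counting interval 35.8 to 151). NXPH4 (chr12:57216795-57226449), SHMT2 (chr12:57229327-57234935) and NDUFA4L2 (chr12:57234903-57240715) are neighbours on GRCh38, and all 3 were called opposite in the same direction. SHMT2 and NDUFA4L2 lie on opposite strands and overlap at their ends, where reads counted without strand cannot be told apart. SHMT2 stood at 247 and 264 CPM in the LS174T cultures, in which NDUFA4L2 was nearly absent. The part of shared reads in these values was not tested.

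ITPKA, a kinase of inositol trisphosphate, fell from 49.5 and 48.5 CPM to 6.54 and 3.16 CPM in KM12 and rose from 0.583 and 0.497 CPM to 7.45 and 9.36 CPM in LS174T. TNNT1, slow skeletal muscle troponin T, fell from 44.4 and 67.7 CPM to 2.64 and 1.07 CPM in KM12 and rose from 0.123 and 0.199 CPM to 1.30 and 0.873 CPM in LS174T. For both genes the levels of the lines were close in xenografts after a wide gap in culture. TSPOAP1 rose in LS174T from 21.4 and 19.5 CPM to 131 and 141 CPM, while in KM12 it was covered by 12 and 25 reads in cultures and by 4 and 0 in xenografts (5.58-fold lower, 95% counting interval 2 to 21.5; edgeR adjusted p = 0.0409 for KM12).

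Promoters of hypoxia genes were searched for ACGTG, the core of the hypoxia response element, on either strand. It was present in 7 of the 13 hypoxia genes with an interaction and a promoter (53.8%), against 26.5% of all promoters, a common motif of 5 letters. It was present in 28.4% of promoters of genes that fell in KM12 and rose in LS174T, and in 21.8% of those that rose in LS174T only. Hypoxia genes without an interaction were not counted. The stretches of DDIT4 (chr10:72273771-72273830, plus strand) and BNIP3 (chr10:131982026-131982085, minus strand), the list members with the smallest interaction p, are shown with matches in capitals.
DDIT4: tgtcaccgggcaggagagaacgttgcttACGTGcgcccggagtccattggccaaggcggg
BNIP3: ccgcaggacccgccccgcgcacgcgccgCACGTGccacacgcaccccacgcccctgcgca
The BNIP3 match reads the same on both strands. BNIP3, a mitophagy receptor, was low in KM12 throughout (1.07 and 0.967 CPM in cultures, 1.72 and 1.26 CPM in xenografts), while in LS174T it rose from 42.7 and 40.8 CPM to 301 and 252 CPM.

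Targets of ATF4, the transcription factor of the amino acid and integrated stress response, fell in KM12 and were mixed in LS174T. Of 21 measured, 12 had the lower response in KM12 (against 7.93% of all genes) and 1 the higher one. In KM12 14 fell, and in LS174T 10 rose and 4 fell, with median log2 changes of -1.14 and 0.23. Over all genes 15.6% fell in KM12, and 23.7% rose and 22.4% fell in LS174T, so the 4 that fell lie near the background. ATF4 itself, ASNS, NUPR1, PHGDH, SHMT2, TRIB3 and CEBPB were called opposite, and PCK2, MTHFD2 and PSAT1 fell in KM12 only.

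ASNS, asparagine synthetase, fell from 327 and 317 CPM to 69.3 and 94.0 CPM in KM12 and rose from 64.1 and 64.7 CPM to 86.7 and 97.1 CPM in LS174T (interaction -2.49 ± 0.23, edgeR adjusted p = 0.00142). The 4 xenograft libraries therefore lay between 69.3 and 97.1 CPM, while KM12 cultures had been far above LS174T cultures. PHGDH, the first enzyme of serine synthesis, fell from 755 and 787 CPM to 289.8 and 231 CPM in KM12 and rose from 134 and 147 CPM to 202 and 263 CPM in LS174T. TRIB3, a pseudokinase induced by stress, fell from 312 and 340.5 CPM to 68.5 and 119 CPM in KM12 and rose from 98.9 and 86.3 CPM to 219 and 194 CPM in LS174T.

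NUPR1, a small stress-induced chromatin protein, fell from 88.2 and 102 CPM to 15.7 and 8.06 CPM in KM12 and rose from 146 and 114 CPM to 412 and 339.7 CPM in LS174T. PCK2, mitochondrial phosphoenolpyruvate carboxykinase, fell from 195 and 211 CPM to 41.4 and 47.3 CPM in KM12 and was at 72.9 and 74.1 CPM before and 81.6 and 91.3 CPM after in LS174T. The cystine transporter SLC7A11 was the exception of the list, since it fell in LS174T only, from 188 and 229 CPM to 52.7 and 37.8 CPM. It is also a target of NRF2, and the GNAS knockout and parental KM12 xenografts had 139 and 166 CPM of it against 174 and 224 CPM in the cultures. The ATF4 calls numbered 10 to 12 without any 1 culture library and 12 to 17 without any 1 xenograft library.

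TGATGNAA, the composite element that ATF4 binds with C/EBP proteins, was found in 2 of the 10 promoters of called ATF4 targets (20.0%), against 1.78% of all promoters and 11% of the 82 of genes that fell in KM12 only. ATF4 targets without such a call were not counted. The element is shown for ATF3 (chr1:212565190-212565249, plus strand), a stress-induced repressor called in LS174T only.
ATF3: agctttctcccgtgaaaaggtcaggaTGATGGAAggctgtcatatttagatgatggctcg
The motif was searched on both strands, and ATF3 holds 1 match.

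**Figure D3:**
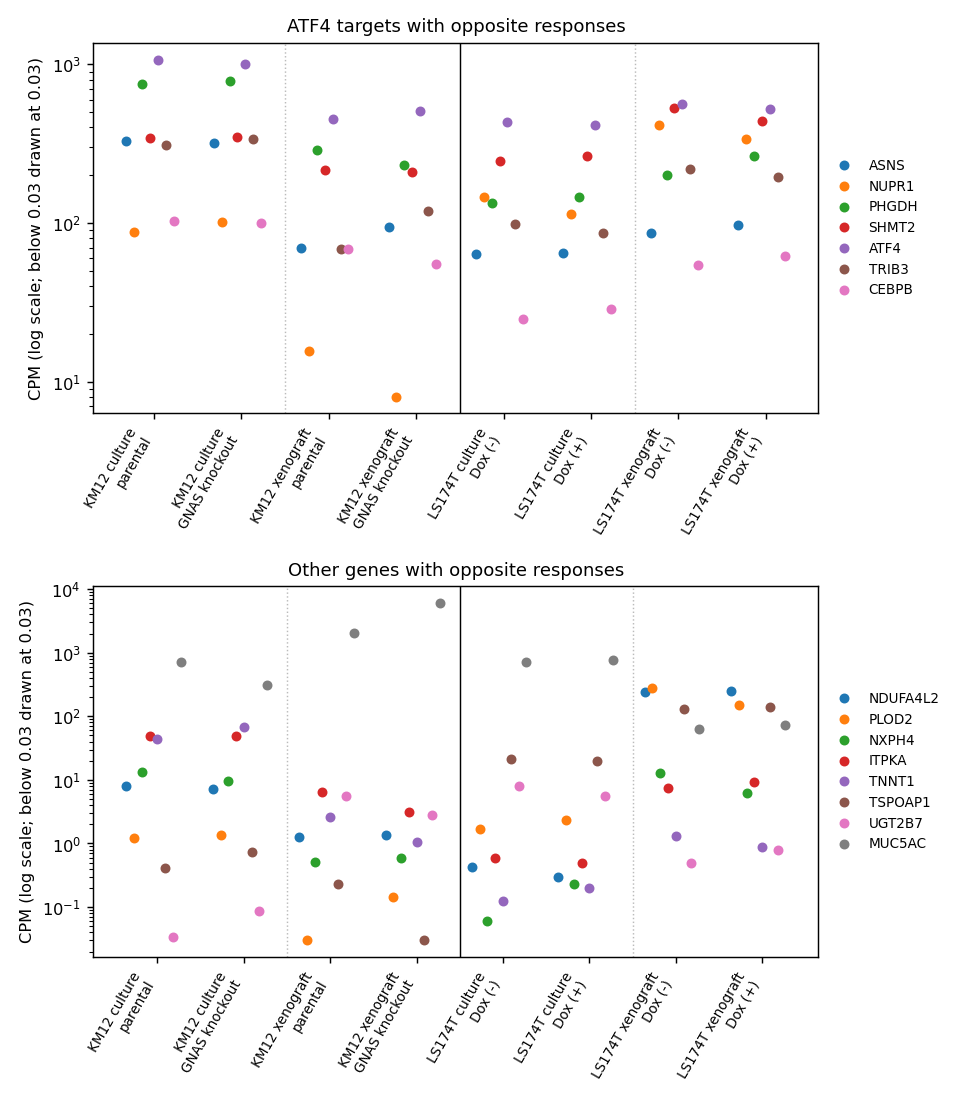
Level (CPM, log scale) in each library of the 7 ATF4 targets with opposite responses (top) and of 8 other named genes with opposite responses (bottom). ATF4 targets lie lower in KM12 xenografts than in KM12 cultures and higher in LS174T xenografts than in LS174T cultures; UGT2B7 and MUC5AC in the lower panel go the other way.

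Cytosolic ribosomal protein genes had small responses, lower in KM12 than in LS174T. The interaction passed for 26 of 30, each with the lower response in KM12 (86.7%, against 7.93% of all genes). In KM12 15 fell, and in LS174T 17 rose, with median log2 changes of -0.44 and 0.51. Over all genes 15.6% fell in KM12 and 23.7% rose in LS174T. Only 3 genes, RPLP0, RPL4 and RPS27A, passed in both lines and were called opposite. The levels of the lines drew closer for 28 of the 30 genes, against 8533 of all 16070.

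RPLP0, a protein of the ribosomal stalk, fell from 4685 and 4495 CPM to 2875 and 3435 CPM in KM12 and rose from 1599 and 1611 CPM to 2235 and 2547 CPM in LS174T (interaction -1.12 ± 0.18, edgeR adjusted p = 0.00773). RPL3, of the large subunit, changed in LS174T only, from 1129.7 and 1123 CPM to 2430.2 and 2812 CPM, and was at 2324 and 2129 CPM before and 1965 and 2144 CPM after in KM12. RPS6, of the small subunit, changed in KM12 only, from 2589.7 and 2518 CPM to 1028 and 1399 CPM. Thus the line whose own response passed varied from gene to gene, while the interactions that passed had one sign. Such a difference in calls does not divide the group, since a difference between its genes was not tested. The log2 changes had opposite signs in KM12 and LS174T for 20 of the 30 genes, against 5038 of all 16070. These genes have many processed pseudogenes, which can take or lend reads. The calls numbered 5 to 11 without any 1 culture library and 24 to 27 without any 1 xenograft library, and over all settings the median stayed between -0.55 and -0.27 in KM12 and between 0.39 and 0.70 in LS174T.

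Some secretory genes of goblet and foveolar cells rose in KM12, and members went both ways in LS174T. Of 25 measured, 10 rose and 1 fell in KM12, and 8 rose and 6 fell in LS174T, with medians of 1.41 and 0.08. Over all genes 14.7% rose and 15.6% fell in KM12, and 23.7% rose and 22.4% fell in LS174T. The LS174T counts thus lie near the background. The interaction was higher in KM12 for 9 and lower for 3, against 6.15% and 7.93% of all genes. With the GNAS state and doxycycline as a block it was higher for 5 and lower for 4, with 6 genes up in KM12, and without the LS174T Dox (+) xenograft it was higher for 3 and lower for 3.

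MUC5AC, a gel-forming mucin of the stomach surface, was at 707 CPM in the parental and 305 CPM in the knockout culture of KM12, and at 2052 and 5979.9 CPM in the xenografts. In LS174T it fell from 709 and 758 CPM to 63.8 and 73.3 CPM. The interaction of MUC5AC, 6.41 ± 0.84, passed (edgeR adjusted p = 0.00714), but not with the GNAS state and doxycycline as a block (edgeR adjusted p = 0.0903). TFF2, a trefoil peptide secreted with MUC5AC, rose in KM12 only, from 17.1 and 15.4 CPM to 118 and 283 CPM, and stayed between 13.6 and 16.8 CPM in all 4 LS174T libraries. AGR2, a disulfide isomerase of mucin-producing cells, fell in LS174T only, from 1463 and 1531 CPM to 578 and 639 CPM. In KM12 the 2 states stood apart for MUC5AC and TFF2, with the knockout xenograft above the parental one.

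BEST2, a bestrophin channel of colonic goblet cells, rose in LS174T from 0.307 and 0.265 CPM to 87.2 and 78.5 CPM and stayed at or below 0.401 CPM in KM12. SPINK1, a trypsin inhibitor, fell in KM12 from 1.34 and 1.52 CPM to 0.172 and 0.0485 CPM and rose in LS174T from 2.42 and 2.32 CPM to 7.49 and 6.84 CPM. These 2 genes had the lower response in KM12, while MUC5AC had the higher one. UGT2B7, a glucuronosyltransferase with close copies in its cluster, rose in KM12 from 1 and 3 reads to 98 and 57, a ratio of 64.3 (95% counting interval 24.6 to 239), and fell in LS174T from 8.01 and 5.67 CPM to 0.488 and 0.776 CPM. The goblet calls numbered 5 to 10 without any 1 culture library.

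**Figure D4:**
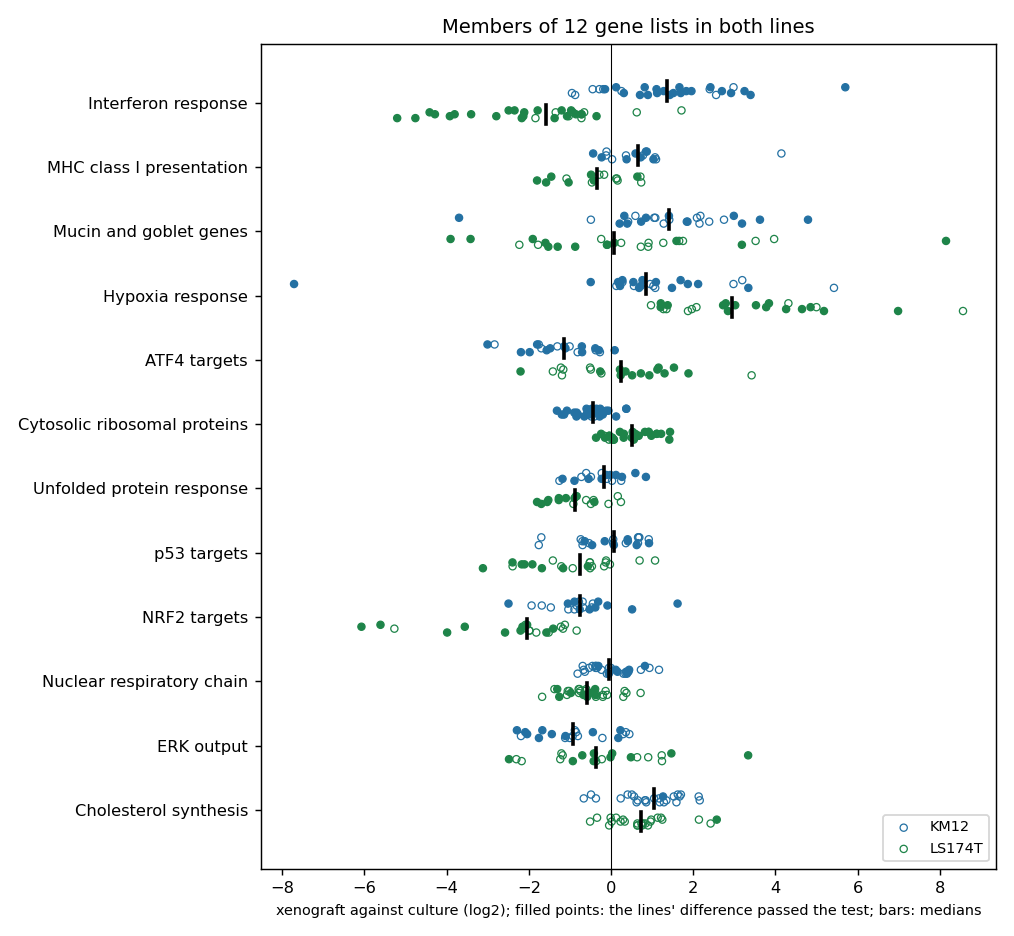
Log2 change from culture to xenograft of the measured members of 12 gene lists in KM12 (blue) and LS174T (green), 1 point per gene; filled points passed the interaction test and black bars are medians. Interferon genes separate to the right in KM12 and to the left in LS174T, ATF4 targets and ribosomal proteins do the reverse, and hypoxia genes lie further right in LS174T.

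Most targets of p53 fell in LS174T, and fewer fell in KM12. Of 22 measured, 8 had the higher response in KM12 (against 6.15% of all genes), while 13 fell and 2 rose in LS174T and 7 fell and 4 rose in KM12. Over all genes 22.4% fell and 23.7% rose in LS174T, and 15.6% fell and 14.7% rose in KM12. The 4 genes that rose in KM12 thus lie near the background. FDXR, ferredoxin reductase, was at 24.2 and 23.4 CPM in cultures and 31.7 and 31.3 CPM in xenografts of KM12, and fell from 156 and 125 CPM to 22.3 and 31.1 CPM in LS174T (interaction 2.80 ± 0.26, edgeR adjusted p = 0.00155). CDKN1A, the cyclin-dependent kinase inhibitor p21, fell in LS174T from 1246 and 946 CPM to 148 and 104 CPM, and its KM12 libraries overlapped at 33.8 and 49.6 CPM against 19.9 and 40.6 CPM. MDM2, the ubiquitin ligase of p53, rose in KM12 from 58.4 and 58.9 CPM to 72.6 and 108 CPM and fell in LS174T from 282 and 246 CPM to 80.2 and 84.4 CPM. For FDXR, FAS, TIGAR and MDM2 the wide gap between the lines in culture narrowed or closed in xenografts. The 8 calls numbered 5 to 6 without any 1 culture library.

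Nearly all genes of the antioxidant factor NRF2 fell in LS174T, and some fell in KM12. Of 21 measured, 9 fell in KM12 and 20 in LS174T, against 15.6% and 22.4% of all genes, with medians of -0.76 and -2.04 and a less negative response in KM12 for 10. AKR1C2, an aldo-keto reductase, fell in LS174T from 359 and 341 CPM to 6.75 and 7.57 CPM, and stayed between 0.9746 and 1.67 CPM in KM12 (interaction 5.30 ± 0.30, edgeR adjusted p = 0.000524). AKR1C genes are near-identical copies, so this value may be shared among them. NQO1, a quinone reductase, fell from 360.4 and 408 CPM to 55.0 and 81.1 CPM in KM12 and from 1641 and 1335 CPM to 125 and 127 CPM in LS174T. Its interaction (1.06 ± 0.27, edgeR adjusted p = 0.0386) was lost without any 1 culture library or any 1 LS174T xenograft, and the 10 calls of the list numbered 2 to 4 without any 1 culture library.

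Most genes of the unfolded protein response, such as chaperones of the endoplasmic reticulum, fell in LS174T, and fewer fell in KM12. Of 18 genes of the unfolded protein response, 13 fell in LS174T, and 6 fell and 2 rose in KM12, with the higher response in KM12 for 9 and the lower for 1. Over all genes 22.4% fell in LS174T, and 15.6% fell and 14.7% rose in KM12. The response was higher in KM12 for 6.15% and lower for 7.93%. The 2 genes that rose and the 1 lower response thus lie near the background. PDIA4, a disulfide isomerase, fell in LS174T only, from 939.8 and 959 CPM to 305 and 355 CPM, and was at 462 and 459 CPM before and 523 and 585 CPM after in KM12 (interaction 1.79 ± 0.17, edgeR adjusted p = 0.00169). CRELD2 rose in KM12 from 37.4 and 37.3 CPM to 80.5 and 54.2 CPM and fell in LS174T from 123 and 127 CPM to 46.6 and 56.9 CPM. HYOU1, an HSP70-like chaperone, fell in both lines, from 717 and 682 CPM to 376 and 378 CPM in KM12 and from 338 and 353 CPM to 109 and 104 CPM in LS174T. Without any 1 culture library 3 to 4 of the 10 interactions passed.

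Many genes driven by ERK signalling fell in KM12. Of 21 measured, 12 fell in KM12, 6 fell and 5 rose in LS174T, and the interaction was lower in KM12 for 8 and higher for 2. Over all genes 15.6% fell in KM12, 22.4% fell and 23.7% rose in LS174T, and 7.93% had the lower and 6.15% the higher response in KM12, so the LS174T counts and the 2 higher responses lie near the background. EGR1, an immediate early transcription factor, fell in KM12 from 424 and 474 CPM to 85.8 and 97.8 CPM, and was at 54.8 and 58.3 CPM in cultures and 30.6 and 54.1 CPM in xenografts of LS174T. ETV4 fell in KM12 from 128 and 111 CPM to 46.2 and 28.6 CPM and overlapped in LS174T, at 226 and 209 CPM against 268 and 176 CPM. SPRY2, a feedback inhibitor, rose in LS174T only, from 40.1 and 44.7 CPM to 117 and 118 CPM. The calls numbered 2 to 3 without any 1 culture library.

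Other lists held fewer interactions. EPHB2, an ephrin receptor of the crypt, fell in KM12 only, from 53.9 and 39.6 CPM to 5.90 and 4.76 CPM, and 9 of 25 crypt and Wnt genes had an interaction, 6 higher in KM12 and 3 lower, against 14.1% of all genes. These 9 calls numbered 1 to 3 without any 1 culture library and 5 to 13 without any 1 xenograft library. SCD, which makes monounsaturated fatty acids, rose in LS174T only, from 49.8 and 59.1 CPM to 987 and 535 CPM, while KM12 had 374 and 409 CPM and then 405 and 709 CPM. Of 30 nuclear genes of the respiratory chain, 8 had a higher response in KM12, 21 fell in LS174T, and KM12 had 6 up and 6 down, near the 14.7% and 15.6% of all genes. The 8 calls fell to 1 or 2 without any 1 culture library. Of 25 cholesterol synthesis genes, 16 rose in KM12 and 12 in LS174T, where 1 fell, against 14.7% and 23.7% of all genes up. The KM12 count was 5 or 6 without 1 KM12 culture library, and the LS174T count was 2 or 5 without 1 LS174T culture library and 7 without the Dox (-) xenograft. For HMGCS1 the interaction was -0.01 ± 0.68, a wide error, so an equal response is not shown. Among 28 mitotic genes only AURKA had an interaction, and it fell in LS174T only, from 77.0 and 93.5 CPM to 34.1 and 38.3 CPM.

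Genes called in KM12 only included several that KM12 gained in xenografts and LS174T held throughout. FOXJ1, the master regulator of motile cilia, rose in KM12 from 0.619 and 1.20 CPM to 22.9 and 11.99 CPM and stayed between 18.02 and 25.5 CPM in LS174T (interaction 4.57 ± 0.53, edgeR adjusted p = 0.00273). The zinc finger factor MYT1 rose from 1 and 3 reads to 42 and 90 in KM12, a ratio of 54.7 (95% counting interval 20.9 to 204), and had 17.6 and 22.4 CPM in cultures and 11.5 and 32.0 CPM in xenografts of LS174T. The chemokine CCL15 rose from 0 and 3 reads to 28 and 61 in KM12 (ratio 49.2, interval 16.3 to 243), and LS174T had 8.32 and 9.05 CPM in cultures and 5.25 and 6.64 CPM in xenografts. The calcium sensor NCALD rose from 1 and 7 reads to 29 and 31 in KM12 (ratio 12.4, interval 5.93 to 30.1) and stayed between 6.89 and 10.3 CPM in LS174T. Only SUSD2, a sushi domain protein, was low in LS174T too: it rose in KM12 from 0.550 and 0.527 CPM to 17.2 and 17.0 CPM and stayed between 0.485 and 1.46 CPM in LS174T. The MYT1 call was lost without either KM12 culture.

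Of the 5 genes with the largest interaction among those that fell in KM12 only, FIBCD1, an acetyl group receptor that binds chitin, had the highest level in KM12 cultures. It fell from 46.5 and 43.6 CPM to 2.87 and 1.31 CPM in KM12, while the LS174T libraries overlapped, at 10.2 and 10.9 CPM in cultures and 19.7 and 5.34 CPM in xenografts. TMEM132B fell in KM12 from 246 and 148 reads to 0 and 4, a ratio of culture to xenograft of 59.4 (95% counting interval 23 to 219). The other 3 named were scarce in KM12 even in culture: IFITM2 went from 11 and 41 reads to 1 and 0 (31.3-fold lower, interval 5.38 to 1.26e+03), the repressor HES2 from 13 and 10 to 0 and 0, at least 2.33-fold lower, and MAGED1 from 5 and 3 to 0 and 0, for which no fold is given. In LS174T these 3 genes were present in all 4 libraries, MAGED1 between 126 and 136 CPM. IFITM2 is an interferon-induced membrane protein outside the list above and has near-identical neighbours. All 5 calls were lost without either LS174T culture library, and those of FIBCD1, HES2 and MAGED1 also without either KM12 culture. With all libraries MAGED1 did not pass in DESeq2 (adjusted p = 0.0702) or in limma-voom (0.0566), as given by the interaction of MAGED1.

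Among genes that rose in LS174T only, some were ones that KM12 held in both environments. FBP1, the gluconeogenic fructose bisphosphatase, rose from 0.614 and 0.530 CPM to 16.03 and 15.7 CPM in LS174T, and was at 9.56 and 10.6 CPM in cultures and 6.88 and 6.602 CPM in xenografts of KM12 (interaction -5.36 ± 0.33, edgeR adjusted p = 0.000837). WDR72, a protein of endocytic vesicles, rose from 0.307 and 0.464 CPM to 8.06 and 7.86 CPM in LS174T and stayed between 49.8 and 71.1 CPM in KM12. ZNF331, an imprinted zinc finger gene, rose from 3 and 9 reads to 207 and 121 in LS174T, a ratio of 37.9 (95% counting interval 21.4 to 74.1), and stayed between 8.45 and 10.6 CPM in KM12. LGI4, a secreted protein of glia, rose from 6 and 0 reads to 907 and 323 in LS174T (ratio 284, interval 130 to 776) and stayed under 0.9 CPM in KM12. FOXD1 went from 0 and 0 reads to 4 and 6 in LS174T, at least 2.37-fold higher than the floor, and was at 17.7 to 24.7 CPM in KM12; its call was lost without any 1 culture library.

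Of the 5 genes with the largest interaction among those that fell in LS174T only, 4 were nearly absent from its xenografts. MUCL3, a mucin-like protein, fell from 179 and 180 reads to 2 and 0 (129-fold lower, 95% counting interval 35.6 to 1.07e+03), and was at 1.41 and 0.498 CPM in cultures and 1.95 and 0.825 CPM in xenografts of KM12. The elastase inhibitor PI3 fell from 267 and 200 reads to 0 and 2 (168-fold lower, 46.3 to 1.39e+03), NAV3 from 411 and 304 to 5 and 1 (85.9-fold lower, 39.3 to 235), and the Wnt antagonist DKK4 from 475 and 444 to 5 and 14. In KM12 these 3 genes were low in all libraries, PI3 at 0.340 to 2.75 CPM, and NAV3 and DKK4 at no more than 0.534 CPM, so a fall could hardly be seen there. The calls of PI3, NAV3 and DKK4 were each lost without either KM12 culture library, those of NAV3 without the parental and of DKK4 without the knockout KM12 xenograft, and the interaction of PI3 also with the GNAS state and doxycycline as a block (edgeR adjusted p = 0.0723). Keratins were the most abundant genes of this kind in the lists: KRT8 fell in LS174T from 14687 and 11574 CPM to 2449.8 and 1727 CPM and was at 4732 and 4524 CPM before and 3382 and 4063 CPM after in KM12.

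**Figure D5:**
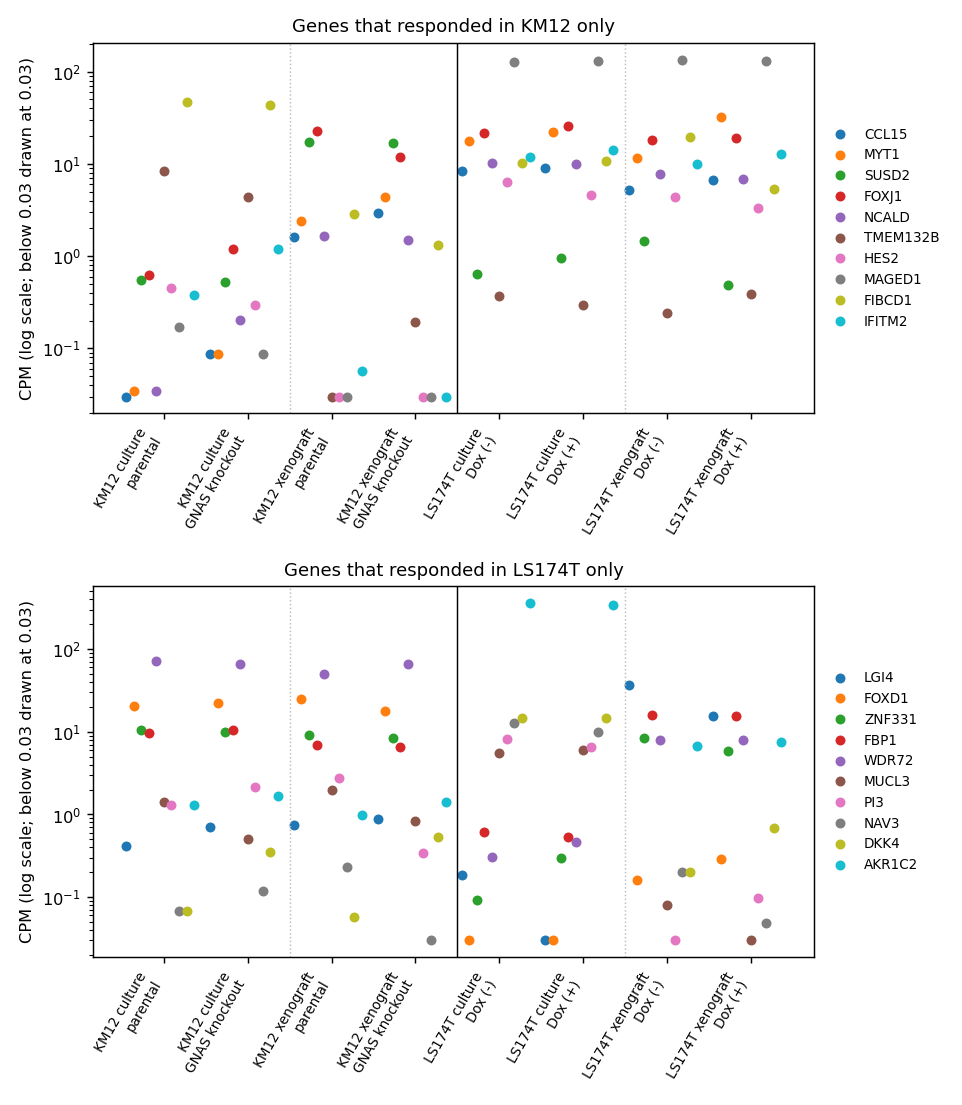
Level (CPM, log scale; values under 0.03 drawn at 0.03) in each library of the 10 named genes that responded in KM12 only (top) and the 10 that responded in LS174T only (bottom). FOXJ1 rises in KM12 to the level it has in LS174T, and FBP1 rises in LS174T to above its level in KM12.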

How the data were processed

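The authors deposited raw counts of reads for each human gene, made with STAR 2.7.2b and HTSeq 0.11.0, naming the builds hg38 and GRCm39, per the submitters' processing notes. The annotation release, strand setting and treatment of mouse reads are not given in the sources used here, so mouse reads may have entered xenograft counts. The library protocol does not mark strand, so overlapping antisense genes cannot be told apart. Symbols and GRCh38 coordinates were matched for 56753 of 60483 genes. Counts were scaled with TMM factors, and 16070 genes with at least 1 CPM in 2 libraries were fitted in edgeR 4.0.16 (R 4.3.3; robust quasi-likelihood, 4 cells of line and environment, 4 residual degrees of freedom), with Benjamini-Hochberg adjustment over all of them at 0.05. Each SE is the absolute log2 value divided by the square root of F. The script was tested on simulated data. Members and gene lists were chosen with earlier results of these data known. Named genes were protein-coding: for opposite responses up to 6 per direction with the largest smaller change of the lines, non-overlapping and at least 5 CPM in a cell; for 1 line only up to 5 per direction with the largest interaction; and up to 4 per list by interaction p. Other genes were named after their values were seen, and some results are not reported here. Libraries of the same line and state pair culture with xenograft, per the labels; deviations from cell means correlated at 0.165 in KM12 and 0.174 in LS174T. Alternatives were other scalings and filters, DESeq2 1.42.0, limma 3.58.1, a replicate block and leaving out each library. Counting intervals are exact (Clopper-Pearson) and cover counting error only.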

Additional observations from a re-analysis of the deposited data

Results flagged for a closer look

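The test of the difference between the lines passed for 2264 genes, and each value here is flagged because that test found the 2 lines' responses unequal. Among the gene lists, it passed for 21 interferon genes, 26 cytosolic ribosomal protein genes, 15 hypoxia genes, 13 ATF4 targets and 10 genes of the unfolded protein response.

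Among opposite responses higher in KM12, the log2 difference in response was 11.45 for CXCL10, 9.39 for UGT2B7, 8.6 for OAS2, 8.19 for XAF1, 6.41 for MUC5AC and 5.71 for IFI44. Among those lower in KM12, it was -11.88 for NDUFA4L2, -10.67 for PLOD2, -10.37 for NXPH4, -7.68 for TNNT1, -7.29 for ITPKA and -5.14 for TSPOAP1. CXCL10, PLOD2, TSPOAP1, UGT2B7 and XAF1 in KM12, and CXCL10 and NXPH4 in LS174T, had libraries with 3 reads or fewer. The fitted size of these genes therefore depends on the prior count.

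For genes called in KM12 only, the log2 difference was 6.02 for CCL15, 5.54 for MYT1, 4.67 for SUSD2, 4.57 for FOXJ1 and 4.08 for NCALD, and -5.79 for TMEM132B, -5.76 for HES2, -4.83 for MAGED1, -4.70 for FIBCD1 and -4.49 for IFITM2. For genes called in LS174T only, it was -7.52 for LGI4, -5.59 for FOXD1, -5.40 for ZNF331, -5.36 for FBP1 and -4.61 for WDR72, and 7.42 for MUCL3, 7.03 for PI3, 6.55 for NAV3, 5.57 for DKK4 and 5.30 for AKR1C2. HES2, MAGED1 and FOXD1 have a pair of libraries with no reads, and CCL15, MYT1, NCALD, TMEM132B, IFITM2, LGI4, ZNF331, MUCL3, PI3, NAV3 and DKK4 have libraries with 3 reads or fewer, so these fitted values depend on the prior count and are not measured sizes. No group has 4 libraries, so none was examined for a library that stands apart.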

How the results depend on the processing

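For the line by environment interaction, without the filter on low counts 3424 genes passed, with 444 genes with opposite responses and 345 genes that respond in KM12 only. Without limits on the size of change 511 genes that respond in KM12 only and 1199 genes that respond in LS174T only were counted. Leaving out 1 library at a time gave 547 to 3395 for the line by environment interaction, 1175 to 5447 for the KM12 xenograft response, 3969 to 8807 for the LS174T xenograft response, 79 to 467 genes with opposite responses, 57 to 397 genes that respond in KM12 only and 186 to 858 genes that respond in LS174T only. The low values came without a culture library, while leaving out a KM12 xenograft library raised the line by environment interaction to 3113 and 3395; the cause was not tested. With the replicate block, pairing libraries by GNAS state or doxycycline, 2198 genes passed for the line by environment interaction; of the 32 genes named by class, MUC5AC and PI3 lost the call.

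DESeq2 gave 3224, limma-voom 2416, and the 2 alternatives chosen after seeing the data, a weight per cell and at least 1 CPM in a cell of each line, 2157 and 2040 for the line by environment interaction. Of the 32 genes, 21 kept direction and call in every alternative that tested them, and 25 in those of them with all 8 libraries. Settings in which a gene missed the filter or had no adjusted p were not counted for it. Upper quartile scaling moved the median of all genes by 0.161 in KM12 and to 0.221 in LS174T. Beside it the ribosomal median was -0.27 and 0.70. With this scaling 307 genes were opposite, of which 216 were among the 291 of the main analysis. Signs turned, without a call, when 1 library was left out: interaction of MT1E (-0.12 to 1.26), interaction of MT2A (-0.43 to 0.60), interaction of UPK3B (-0.72 to 0.21), interaction of ENG (-0.18 to 1.95) and interaction of S100A9 (-0.46 to 3.78). Depth limits genes such as MAGED1, HES2 and CXCL10, whose KM12 libraries hold few or no reads.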

Other observations

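Genes of the aryl hydrocarbon receptor, which senses ligands in medium and diet, fell in both lines, 8 of 9 measured in each. Over all genes 15.6% fell in KM12 and 22.4% in LS174T. ALDH3A1, an aldehyde dehydrogenase, went from 82.0 and 76.7 CPM in culture to 11.4 and 4.71 CPM in xenografts of KM12 and from 399.9 and 335 CPM to 1.26 and 1.26 CPM in LS174T, and it and NQO1 were the 2 of the list with an interaction, both less negative in KM12. Metallothioneins, which bind zinc and copper, rose in LS174T for 8 of 8 measured and in KM12 for 3. Over all genes 23.7% rose in LS174T and 14.7% in KM12. The interaction passed for 0 of the 8, so a different response of the lines was not shown. Metallothionein genes are close copies, and reads may be shared among them.

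Among targets of cAMP and CREB, which act downstream of the GNAS product, the 2 genes called opposite went different ways. NR4A2, an orphan nuclear receptor, rose in KM12 from 15.03 and 11.7 CPM to 46.9 and 35.5 CPM and fell in LS174T from 24.4 and 35.7 CPM to 18.6 and 16.6 CPM. CITED2, a transcriptional co-regulator, did the reverse, from 47.7 and 58.5 CPM to 35.4 and 37.6 CPM in KM12 and from 43.9 and 41.6 CPM to 138 and 107 CPM in LS174T. Of 25 measured genes of the list, 6 had an interaction, 2 higher in KM12 and 4 lower, against 14.1%, 6.15% and 7.93% of all genes, so the count of higher ones lies near the background.

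COL1A2, a fibrillar collagen chain of the fibroblast list, was called opposite at low levels: 0.825 and 0.557 CPM in cultures and 3.73 and 3.45 CPM in xenografts of KM12, against 1.53 and 1.33 CPM and then 0.244 and 0.146 CPM in LS174T. The part of reads from other cells in this was not tested.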
